A study of Homo sapiens with 9 samples.

Results

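The 38 genes described here encode the glucose transporters and enzymes that carry glucose to lactate, and the genes that cells switch on when oxygen is short. They were chosen by name, and every probe set carrying one of these symbols on the Affymetrix Human Genome U133 Plus 2.0 array was taken, with PKM also accepted under its older symbol. Of the 38, 35 had at least 1 probe set of their own among 19775 genes on the array. CA9, SLC16A1 and SLC16A3, a carbonic anhydrase and a pair of lactate carriers, are not analysed here. The 35 genes were read by 83 probe sets, of which 64, from 34 genes, passed a filter on low values (log2 values of 6 or more in at least 3 of 9 arrays). Of the 83, 3 are control probe sets of GAPDH, which were not tested. PDK4 was read by probe sets that stayed below it.

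RNA came from near-confluent cultures of 3 human breast cancer cell lines, with 3 arrays per line. B6TC is GFP positive and estrogen-independent, is mostly resistant to both puromycin and G418, and is described by the labels as a fusion of the other lines. It was grown, under G418, from a single tumor that B6 cells formed in a nude mouse without estrogen, and B6 itself came from the bone marrow of 1 mouse, so B6TC is 1 isolate. MDA-MB-231 is the ER negative MDA-MB-231/GFP/Neo clone, resistant to G418, and ZR-75-1 is the ER positive ZR-75-1/GFP/puro line, made of pooled puromycin-resistant cells. All lines carry GFP and were cultured in McCoy's medium with serum, and no sample was put under low oxygen according to the labels or the methods. The labels call the arrays technical replicates, and the methods name triplicate labeling and hybridization without separate cultures. The p-values therefore measure only the spread between such arrays.

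Glycolysis splits glucose into pyruvate and yields ATP without oxygen. Lactate dehydrogenase then turns pyruvate into lactate, while pyruvate dehydrogenase kinases hold pyruvate back from the mitochondria. When oxygen is plentiful, prolyl hydroxylases mark the α subunits of the hypoxia-inducible factors (HIFs) for destruction; when it falls, the α subunits persist, pair with ARNT and bind a short motif near their target genes, many of which are glycolytic. Many cancer cells run glycolysis also in oxygen.

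The promoters of 5 genes are shown because their genes carried the differences described further on. LDHB had the largest difference between lines among these genes, ADM and ANKRD37 were the hypoxia-induced genes with the largest differences from ZR-75-1, PKM had the largest difference between B6TC and MDA-MB-231, and EGLN3 was highest in ZR-75-1. Each run gives the 250 bases before the annotated start, 5′ to 3′ on the strand of the gene, from RefSeq on GRCh38.p14. Capitals mark the core letters of the HIF motif, ACGTG or GCGTG, read on either strand (CACGT or CACGC on the other). The windows are chr12:21657843-21658092 on the minus strand for LDHB, chr11:10304823-10305072 on the plus strand for ADM, chr4:185396591-185396840 on the plus strand for ANKRD37, chr15:72231191-72231440 on the minus strand for PKM and chr14:33951075-33951324 on the minus strand for EGLN3.
LDHB: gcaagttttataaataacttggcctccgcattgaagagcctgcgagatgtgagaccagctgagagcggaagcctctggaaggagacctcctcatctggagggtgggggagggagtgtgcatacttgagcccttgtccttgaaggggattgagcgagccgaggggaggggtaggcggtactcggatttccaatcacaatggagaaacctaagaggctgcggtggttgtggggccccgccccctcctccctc
ADM: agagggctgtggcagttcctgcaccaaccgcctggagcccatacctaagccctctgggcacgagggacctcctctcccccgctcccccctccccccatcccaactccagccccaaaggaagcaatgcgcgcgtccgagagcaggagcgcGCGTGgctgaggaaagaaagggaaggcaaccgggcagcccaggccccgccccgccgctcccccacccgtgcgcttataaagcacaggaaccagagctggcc
ANKRD37: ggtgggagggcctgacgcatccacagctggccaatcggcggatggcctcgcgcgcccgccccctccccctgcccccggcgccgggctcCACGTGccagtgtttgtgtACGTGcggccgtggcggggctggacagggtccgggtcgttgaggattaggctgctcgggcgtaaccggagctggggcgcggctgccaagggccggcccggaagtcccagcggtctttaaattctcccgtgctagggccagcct
PKM: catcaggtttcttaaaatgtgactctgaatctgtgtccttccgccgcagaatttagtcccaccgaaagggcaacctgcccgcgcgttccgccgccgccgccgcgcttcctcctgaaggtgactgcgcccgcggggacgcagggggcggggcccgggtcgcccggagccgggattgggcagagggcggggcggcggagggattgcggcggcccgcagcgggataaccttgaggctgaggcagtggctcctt
EGLN3: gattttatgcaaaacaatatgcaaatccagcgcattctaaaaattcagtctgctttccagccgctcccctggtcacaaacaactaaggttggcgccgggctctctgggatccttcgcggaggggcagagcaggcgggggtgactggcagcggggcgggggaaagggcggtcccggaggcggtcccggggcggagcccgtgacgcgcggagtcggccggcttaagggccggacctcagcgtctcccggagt

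The ADM window held 1 match, and the ANKRD37 window held 3, in 2 runs, since CACGTG reads as a match on both strands. The LDHB, PKM and EGLN3 windows held none of these letters. Promoter entries were found for 31 of the 35 genes, and 25 of the 31 (80.6%) had a match in at least 1 entry, as had 47.4% of 27305 genes with an entry. Counted by entry, the shares were 55.4% of 56 and 43.2% of 35116. SLC2A3, VEGFA, BNIP3L and NDRG1 had no entry. A match is a description of the letters and not a binding site. All the letters searched contain CG, so matches depend on how often CG occurs in a window. That was not compared between the members and all genes. Members also had more entries per gene (56 for 31 genes, against 35116 for 27305).

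Array medians lay between 4.89 and 4.96 on the log2 scale, and 33.8% to 34.7% of the probe sets of an array reached 6. Arrays of a line differed by a median of 0.0857 to 0.109, and arrays of different lines by 0.178 to 0.283. The label check used marker genes. All 6 luminal markers, among them CDH1 and GATA3, were lower in B6TC compared with ZR-75-1 and lower in MDA-MB-231 than in ZR-75-1, and all 5 mesenchymal markers, among them VIM, were higher in both. The 4 blood cell markers measured, PTPRC, CD3E, LYZ and HBB, stayed below the filter on all arrays, and of 3 stromal markers only COL1A1 passed it, with means at 7.15 (B6TC), 7.27 (MDA-MB-231) and 7.09 (ZR-75-1). The third B6TC array stood apart. Of 226 probe sets high in ZR-75-1 and low in MDA-MB-231, chosen without regard to B6TC, it was the highest B6TC array at 199 (88.1%). Its median excess over the mean of the other B6TC arrays was 0.379 across the 226. Spiked-in poly-A controls also differed by line, with array means of 9.04 to 9.11 in B6TC, 5.66 to 5.70 in MDA-MB-231 and 7.52 to 7.57 in ZR-75-1. Their part in the results was not tested.

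LDHB, SLC2A3, PFKFB3, ADM and ANKRD37 were low in ZR-75-1 and high in the other lines, with B6TC level with MDA-MB-231 or above it. PFKL and EGLN3 were higher in ZR-75-1 than in the other lines, with EGLN3 little above the filter level even there. Against MDA-MB-231, 5 hypoxia-induced genes were higher in B6TC by 0.22 to 0.79 on the log2 scale, although second probe sets of BNIP3 (−0.06) and BNIP3L (0.11) were not called, and VEGFA was lower on all 4 probe sets. Glycolytic enzymes went both ways, with HK1, HK2, PFKM and PFKFB3 higher in B6TC and others lower, PKM by the most.

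A single probe set stands for each gene, namely that of highest mean over the 9 arrays, and differences are of log2 values, so that 1 means 2-fold. They were tested with limma over all 21095 probe sets that passed the filter, and a gene was called where the adjusted p (Benjamini-Hochberg) did not exceed 0.05. Of the 34 genes tested, 12 were higher and 13 lower in B6TC compared with MDA-MB-231, with 9 not called. Over all 10698 genes tested, 36.5% were higher and 28.6% lower in this comparison. On these probe sets only PKM passed the test with a difference of at least 2-fold, as did 3.71% of all genes. Other probe sets of SLC2A3 (1.13) and VEGFA (−1.11 and −1.10) also passed at that size. The median difference over the 34 genes was 0.05, against 0.04 over all genes. Without the third B6TC array 12 of these genes were called higher and 10 lower. With the arrays centered on their medians 13 were called higher and 9 lower, and with no filter 12 and 10.

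Against ZR-75-1, 21 of the 34 genes were higher and 11 lower in B6TC, with 2 not called. Of all genes 42.8% were higher and 41.5% lower. At least 2-fold, 8 genes were higher (SLC2A3, PFKFB3, PGK1, LDHB, BNIP3L, VEGFA, ADM and ANKRD37) and 2 lower (PFKL and EGLN3), while 31.3% of all genes passed at that size in either direction. The median difference was 0.38 over the 34 genes and near 0 over all genes. Without the third B6TC array 20 were called higher and 10 lower. Between the parental lines, 21 genes were higher in MDA-MB-231 than in ZR-75-1 and 9 lower, with 4 not called, beside 42.6% higher and 41.8% lower of all genes. At least 2-fold, 7 were higher and 2 lower, beside 31.6% of all genes in either direction. The share of genes called in either direction was 73.5%, 94.1% and 88.2% in these 3 comparisons, beside 65.1%, 84.4% and 84.4% over all genes, so that many small differences passed the test in the whole array and not only here.

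**Figure D1:**
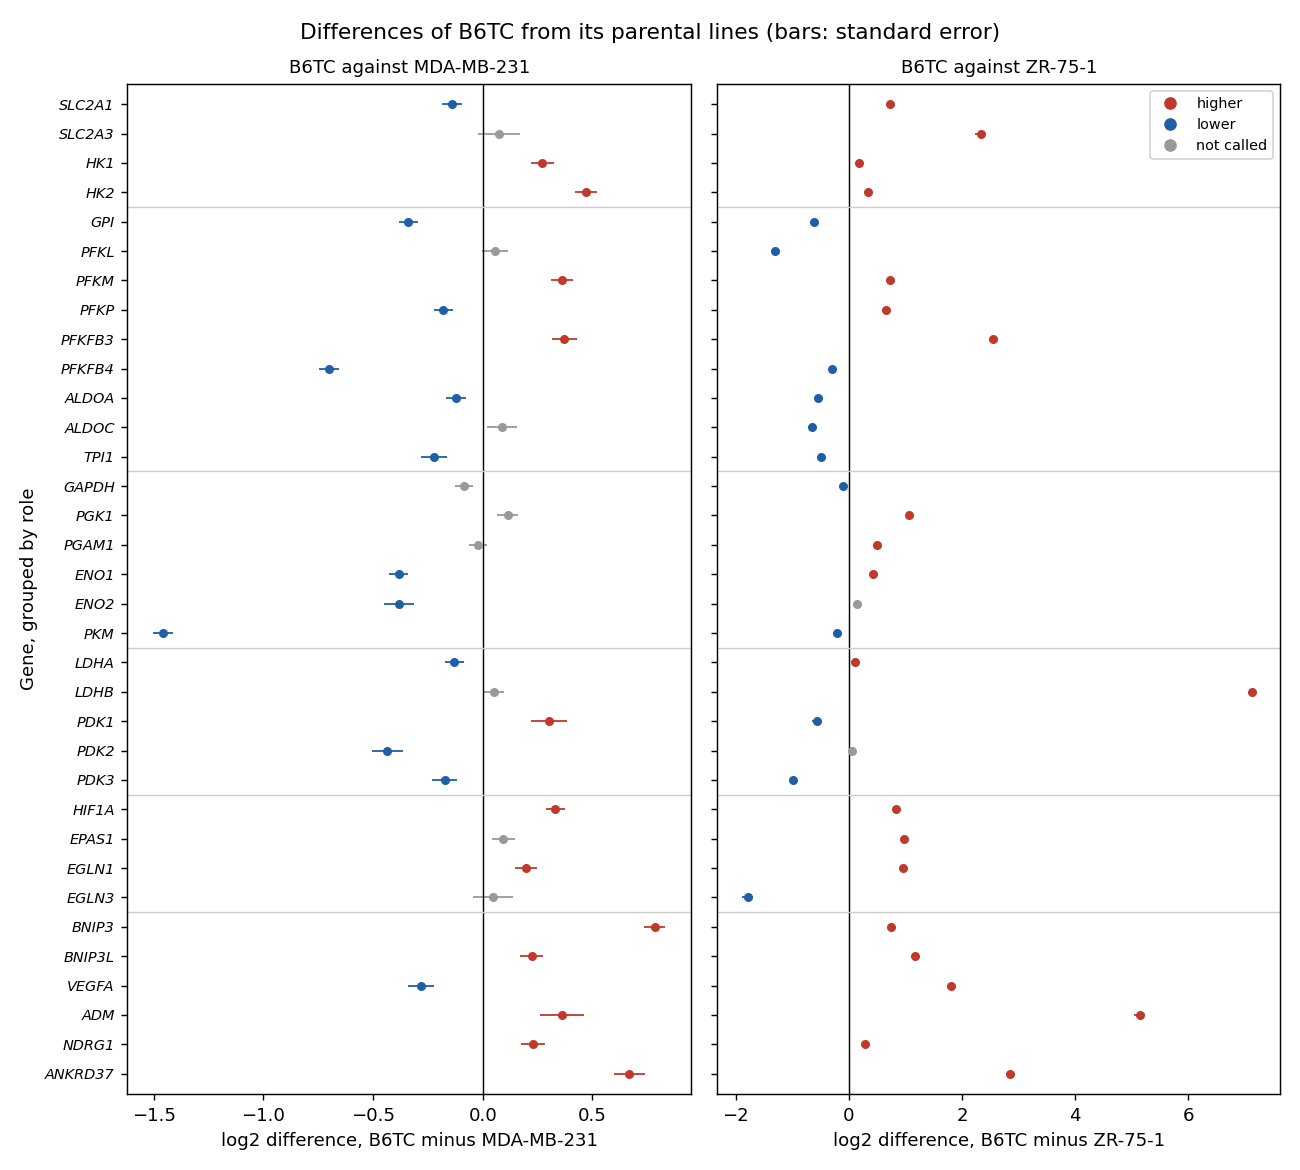
Log2 differences of the 34 tested genes, grouped by role from glucose uptake at the top to hypoxia-induced genes at the bottom, for B6TC minus MDA-MB-231 (left) and B6TC minus ZR-75-1 (right), with standard errors as bars and the limma call as color. The horizontal scales differ between the panels: the left one runs from PKM at −1.46 to BNIP3 at 0.79, and the right one reaches 7.13 at LDHB.

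All 4 genes for glucose transporters and hexokinases were higher in B6TC compared with ZR-75-1, beside 42.8% of all genes. For SLC2A3 a difference from ZR-75-1 was built into its selection by the filter. HK1 and HK2, which trap glucose as its phosphate, were also higher in B6TC compared with MDA-MB-231. HK2, the hexokinase that HIF and growth signals induce, averaged 9.09 ± 0.049 in B6TC cells, 8.62 ± 0.074 in MDA-MB-231 cells and 8.76 ± 0.030 in ZR-75-1 cells (SD, n = 3 arrays each). The difference from MDA-MB-231 was 0.47 (standard error, SE, 0.051, limma adjusted p = 2.36e-05), and a second tested probe set of HK2 gave 0.37. HK1, the hexokinase found in most tissues, was higher in B6TC by 0.27 and 0.17 than in MDA-MB-231 or ZR-75-1 (limma adjusted p = 0.0013 and 0.0133). SLC2A1 encodes the basal glucose transporter GLUT1. It averaged 8.79 ± 0.032 (B6TC), 8.93 ± 0.011 (MDA-MB-231) and 8.06 ± 0.063 (ZR-75-1), and was lower than in MDA-MB-231 by a small margin (−0.14, limma adjusted p = 0.0214). That call was lost without B6TC array 2 or 3 or MDA-MB-231 array 2 or 3 (adjusted p from 0.0516 to 0.0669). It was also lost with no filter (limma adjusted p = 0.0953) and with centered arrays (limma adjusted p = 0.0976). The call of HK2 between the parental lines (−0.14) was lost without MDA-MB-231 array 2 or 3 or ZR-75-1 array 2 or 3 (adjusted p from 0.0505 to 0.0819), and with no filter (limma adjusted p = 0.0861).

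SLC2A3 encodes GLUT3, the high-affinity glucose transporter of neurons and many tumors. Its probe set read 7.00, 6.93 and 7.07 (B6TC), 6.90, 6.90 and 6.99 (MDA-MB-231) and 4.47, 4.91 and 4.62 (ZR-75-1). The B6TC and MDA-MB-231 arrays overlapped (0.07, SE 0.096, limma adjusted p = 0.525), and both lay above all ZR-75-1 arrays, B6TC by 2.33 and MDA-MB-231 by 2.26 (limma adjusted p = 3.68e-09 and 4.63e-09). A further pair of SLC2A3 probe sets did separate B6TC from MDA-MB-231. One read 7.73, 7.79 and 7.64 for B6TC, 6.64, 6.56 and 6.56 for MDA-MB-231 and 3.23, 3.25 and 3.16 for ZR-75-1, which is 1.13 above MDA-MB-231 (limma adjusted p = 1.41e-07) and 4.51 above ZR-75-1. The other was 0.91 above MDA-MB-231 (limma adjusted p = 1.19e-06). Of 2 probe sets that the annotation assigns to SLC2A3 and its close copy SLC2A14 together, 1 was higher in B6TC compared with MDA-MB-231 (0.37, limma adjusted p = 0.0186) and 1 was not called (0.14, limma adjusted p = 0.0816). Signals of the copies cannot be told apart there. The size of the difference from MDA-MB-231 thus varied with the probe set (0.70 for the mean of the 3 of SLC2A3 alone, limma adjusted p = 5.84e-07), and all 5 were called higher against ZR-75-1.

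**Figure D2:**
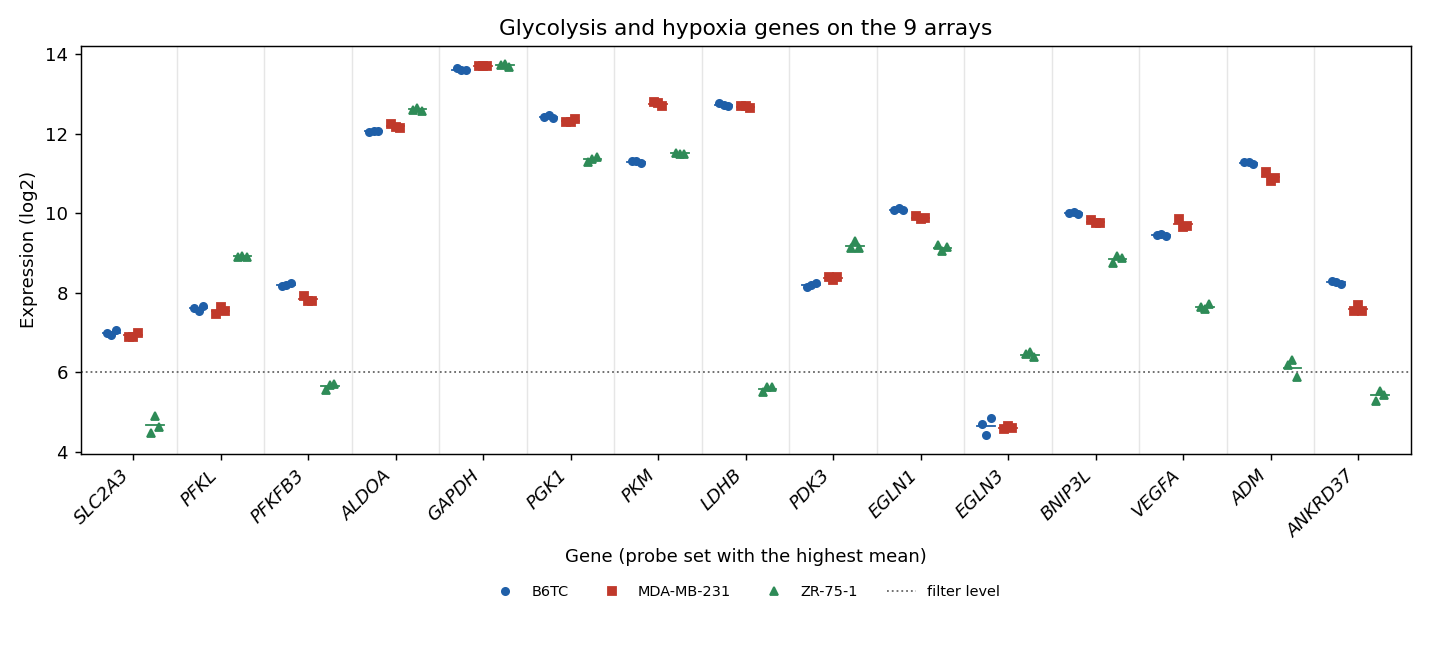
Log2 expression of the 15 genes given array by array, 1 point per array and a short line at the mean of each line (B6TC, then MDA-MB-231, then ZR-75-1), with the filter level of 6 as a dotted line. LDHB, SLC2A3, PFKFB3, ADM and ANKRD37 sit high in B6TC and MDA-MB-231 and near or below the filter level in ZR-75-1, PFKL and EGLN3 sit higher in ZR-75-1, and PKM in B6TC sits beside ZR-75-1.

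The upper steps, from glucose 6-phosphate to the triose phosphates, were mixed. Against MDA-MB-231, 2 of 9 genes were higher in B6TC (PFKM and PFKFB3), 5 lower (GPI, PFKP, PFKFB4, ALDOA and TPI1) and 2 not called (PFKL and ALDOC). Against ZR-75-1, 3 were higher (PFKM, PFKP and PFKFB3) and 6 lower. Between the parental lines 4 were higher in MDA-MB-231 and 5 lower. Over all genes the shares higher and lower were 36.5% and 28.6%, 42.8% and 41.5%, and 42.6% and 41.8% in these 3 comparisons.

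PFKFB3 makes fructose 2,6-bisphosphate, the strongest activator of phosphofructokinase, and is a known HIF target. It read 8.17, 8.20 and 8.24 in B6TC cells, 7.92, 7.79 and 7.79 in those of MDA-MB-231 and 5.57, 5.70 and 5.71 in those of ZR-75-1, with no overlap between any pair of lines. B6TC was above MDA-MB-231 by 0.37 (SE 0.057, limma adjusted p = 0.000275) and above ZR-75-1 by 2.55 (limma adjusted p = 4.73e-11). PFKFB4, a second enzyme of this family, went the other way. It averaged 7.00 ± 0.0099 in B6TC cells, 7.70 ± 0.056 in MDA-MB-231 cells and 7.30 ± 0.044 in ZR-75-1 cells, so that B6TC differed by −0.70 and −0.30 (limma adjusted p = 9.64e-07 and 0.000119).

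The 3 phosphofructokinase genes, whose subunits mix in the enzyme that commits sugar to glycolysis, did not move together. PFKL, the liver type, read 7.63, 7.53 and 7.67 (B6TC), 7.46, 7.65 and 7.54 (MDA-MB-231) and 8.91, 8.93 and 8.90 (ZR-75-1). The first pair of lines overlapped (0.06, limma adjusted p = 0.415), and B6TC was below ZR-75-1 (−1.31, SE 0.058, limma adjusted p = 6.58e-09). A second PFKL probe set gave the same difference of −1.31. PFKM, the muscle type, was highest in B6TC, with means at 9.33 ± 0.012 (B6TC), 8.97 ± 0.067 (MDA-MB-231) and 8.62 ± 0.063 (ZR-75-1) (0.36 and 0.72 above them). PFKP, the platelet type, averaged 10.88 ± 0.026 (B6TC), 11.06 ± 0.047 (MDA-MB-231) and 10.23 ± 0.019 (ZR-75-1), and so lay between the parental lines. All these differences of PFKM and PFKP passed the test.

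GPI, which interconverts glucose and fructose 6-phosphate, and TPI1, which interconverts the trioses, were lowest in B6TC and highest in ZR-75-1. GPI was below MDA-MB-231 (−0.34, limma adjusted p = 6.75e-05) and TPI1 likewise (−0.22, limma adjusted p = 0.00749), and a second TPI1 probe set gave −0.30. ALDOC, the brain-type aldolase, averaged 6.84 ± 0.061 in B6TC cells, 6.75 ± 0.095 in MDA-MB-231 cells and 7.50 ± 0.11 in ZR-75-1 cells and was called lower against ZR-75-1 (−0.66). ALDOA, the main aldolase, which cleaves fructose bisphosphate, read 12.04, 12.06 and 12.07 for B6TC, 12.24, 12.16 and 12.14 for MDA-MB-231 and 12.60, 12.64 and 12.57 for ZR-75-1. These arrays did not overlap, but the difference from MDA-MB-231 was small (−0.12, SE 0.045, limma adjusted p = 0.0356), and the call was lost with a replicate block (adjusted p = 0.06) and without any 1 of B6TC arrays 1, 2 and 3 or MDA-MB-231 arrays 1 and 2 (adjusted p from 0.0526 to 0.102). The call was also lost with no filter (limma adjusted p = 0.137) and with centered arrays (limma adjusted p = 0.183). With the probe sets of ALDOA averaged the difference turned to 0.10 (limma adjusted p = 0.0454). Another ALDOA probe set was higher in B6TC compared with MDA-MB-231, at 9.30, 9.41 and 9.29 against 9.18, 8.90 and 8.85 (0.36, limma adjusted p = 0.00517). All 3 ALDOA probe sets were lower in B6TC compared with ZR-75-1, by −0.52 to −0.61.

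The lower steps, from the triose to pyruvate, held no gene that was higher in B6TC compared with MDA-MB-231. ENO1, ENO2 and PKM were lower and GAPDH, PGK1 and PGAM1 were not called. Against ZR-75-1, PGK1, PGAM1 and ENO1 were higher, GAPDH and PKM lower and ENO2 not called. Between the parental lines 5 of 6 were higher in MDA-MB-231, and GAPDH was not called.

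PKM, the pyruvate kinase that makes the last ATP of glycolysis, differed the most between B6TC and MDA-MB-231 among the tested genes. It read 11.30, 11.32 and 11.26 in B6TC cells, 12.80, 12.77 and 12.68 in those of MDA-MB-231 and 11.52, 11.50 and 11.50 in those of ZR-75-1. All B6TC arrays lay below all others, below MDA-MB-231 (−1.46, SE 0.045, limma adjusted p = 1.39e-08) and below ZR-75-1 (−0.21, limma adjusted p = 0.00123). A second PKM probe set read 6.18, 6.18 and 6.08 (B6TC), 6.98, 7.05 and 7.10 (MDA-MB-231) and 5.67, 5.64 and 5.71 (ZR-75-1). There B6TC was again below MDA-MB-231 (−0.90, limma adjusted p = 4.05e-07) but above ZR-75-1 (0.47, limma adjusted p = 7.21e-06). This second probe set passed the filter through B6TC and MDA-MB-231 alone, so a difference from ZR-75-1 was built into its selection. Both probe sets thus placed B6TC below MDA-MB-231, and they disagreed on ZR-75-1, from which the mean of both differed by 0.13 (limma adjusted p = 0.00675). The gene yields the M1 and M2 isoforms by splicing, and which of them these probe sets read is not given in the sources used here.

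PGK1 makes the first ATP of glycolysis and is a classic HIF target. Its probe set with the highest mean read 12.41, 12.46 and 12.40 for B6TC, 12.29, 12.28 and 12.36 for MDA-MB-231 and 11.29, 11.37 and 11.41 for ZR-75-1. B6TC was above ZR-75-1 by 1.07 (SE 0.048, limma adjusted p = 6.73e-09) and not called against MDA-MB-231 (0.11, limma adjusted p = 0.0592), although these arrays did not overlap and the call was made without MDA-MB-231 array 3 (0.14, adjusted p = 0.0485). The other 4 tested PGK1 probe sets were all called lower in B6TC compared with MDA-MB-231, by −0.27 to −0.52. One of them read 11.61, 11.63 and 11.60 in B6TC and 12.12, 12.09 and 12.04 in MDA-MB-231 (−0.47, limma adjusted p = 6.15e-06). Averaged over its probe sets, PGK1 was lower against MDA-MB-231 (−0.30, limma adjusted p = 6.8e-05). All 5 were higher in B6TC compared with ZR-75-1. The dimmest of them read 3.21, 3.45 and 3.28 in ZR-75-1, under the filter level, and passed through the other lines alone. A difference from ZR-75-1 was thus built into its selection.

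GAPDH, the enzyme used as loading control in the blots of the study, read 13.64, 13.59 and 13.59 in B6TC cells, 13.69, 13.71 and 13.69 in those of MDA-MB-231 and 13.73, 13.73 and 13.68 in those of ZR-75-1. It was lower in B6TC compared with ZR-75-1 by a small margin (−0.11, SE 0.041, limma adjusted p = 0.0296) and not called against MDA-MB-231 (−0.09, limma adjusted p = 0.0875), though it was by robust regression (adjusted p = 0.00208). The call against ZR-75-1 was lost without B6TC array 2 or 3 or ZR-75-1 array 1 or 2 (adjusted p from 0.0709 to 0.0865), and after centering of the arrays or a second quantile normalization. Both other tested GAPDH probe sets were lower in B6TC against both parental lines, by −0.15 to −0.17. GAPDH is also read by 3 control probe sets along its transcript. The 3′ one exceeded the 5′ one by 0.28 to 0.32 in B6TC cells, 0.03 to 0.10 in MDA-MB-231 cells and 0.18 to 0.23 in ZR-75-1 cells, and the same difference for ACTB was 0.67, 0.28 to 0.34 and 0.69 to 0.77 in those lines. This measure of RNA and labeling quality differed between the lines without overlap for GAPDH and for ACTB. Its part in the small differences between lines and between probe sets of 1 gene was not tested.

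ENO1 and ENO2 encode enolases, the second of them best known from neurons. ENO1 averaged 12.71 ± 0.002 (B6TC), 13.09 ± 0.053 (MDA-MB-231) and 12.28 ± 0.027 (ZR-75-1), below MDA-MB-231 (−0.38, limma adjusted p = 3.21e-05) and above ZR-75-1 by 0.43. Of 4 tested ENO1 probe sets, 3 were called lower against MDA-MB-231, and the fourth was not (−0.22, limma adjusted p = 0.193). ENO2 was also below MDA-MB-231 (−0.38, limma adjusted p = 0.000617) and was not called against ZR-75-1 (0.14, limma adjusted p = 0.0711), where leaving out ZR-75-1 array 1 made the call (0.20, adjusted p = 0.0235). PGAM1, a phosphoglycerate mutase, averaged 12.35 ± 0.034 in B6TC and 12.37 ± 0.029 in MDA-MB-231, with overlapping arrays, and 11.84 ± 0.017 in ZR-75-1.

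Between pyruvate and lactate lay the largest difference among these genes. LDHB encodes the heart-type subunit of lactate dehydrogenase, which favors the turn of lactate into pyruvate. It read 12.76, 12.72 and 12.69 (B6TC), 12.68, 12.69 and 12.65 (MDA-MB-231) and 5.52, 5.64 and 5.63 (ZR-75-1). The first pair of lines overlapped (0.05, SE 0.047, limma adjusted p = 0.359), and ZR-75-1 was far below both, B6TC being 7.13 above it (limma adjusted p = 3.95e-14) and MDA-MB-231 7.08 (limma adjusted p = 6.62e-14). A second probe set read 12.91, 12.88 and 12.93 for B6TC, 12.83, 12.81 and 12.79 for MDA-MB-231 and 3.41, 2.73 and 2.64 for ZR-75-1, a difference of 9.98 between B6TC and ZR-75-1, and B6TC was again not called against MDA-MB-231 (0.10, limma adjusted p = 0.621). The ZR-75-1 values of both probe sets lay under the filter level, and these values carry no call of presence, so the size of the difference depends on how the low values were made. The same holds for SLC2A3, PFKFB3 and ANKRD37 in ZR-75-1 and for EGLN3 in the other lines. LDHB, SLC2A3, PFKFB3 and ANKRD37 passed the filter through B6TC and MDA-MB-231 alone, so a difference from ZR-75-1 was built into their selection.

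The neighbors of LDHB on chromosome 12 differed by far less. Of the 5 genes on either side of it in the GRCh38.p14 annotation, 5 passed the filter. PYROXD1, RECQL and GOLT1B on one side differed by −0.62, 0.91 and 1.37 from ZR-75-1 in MDA-MB-231, and CMAS and C2CD5 on the other by −0.42 and 0.58. GOLT1B, the largest of these, averaged 9.24 (B6TC), 8.88 (MDA-MB-231) and 7.52 (ZR-75-1). SPX, GYS2, KCNJ8, ABCC9 and ST8SIA1 were below the filter.

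LDHA, the muscle-type subunit, which favors lactate, was by contrast nearly level. It averaged 12.94 in B6TC, where the 3 arrays are listed at the same value, 13.07 ± 0.033 in MDA-MB-231 cells and 12.83 ± 0.040 in ZR-75-1 cells. The differences of B6TC were −0.13 and 0.12 (limma adjusted p = 0.0203 and 0.0256). The call against MDA-MB-231 was lost without B6TC array 1 or 3 or MDA-MB-231 array 3 (adjusted p from 0.0504 to 0.0636), and that against ZR-75-1 without any 1 of the B6TC arrays or ZR-75-1 array 2 or 3 (adjusted p from 0.0554 to 0.0784). With no filter both were lost (limma adjusted p = 0.103 and 0.11). The first was also lost with centered arrays (limma adjusted p = 0.112) and after a second quantile normalization (limma adjusted p = 0.0702).

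The pyruvate dehydrogenase kinases, which switch off the entry of pyruvate into the mitochondria, split. PDK1, the HIF-induced kinase, averaged 7.10 ± 0.13 in B6TC cells, 6.80 ± 0.13 in MDA-MB-231 cells and 7.67 ± 0.065 in ZR-75-1 cells, above MDA-MB-231 by 0.30 (limma adjusted p = 0.00907) and below ZR-75-1 (−0.57, limma adjusted p = 8.5e-05). A second tested PDK1 probe set was not called in any comparison, and with both averaged the call against MDA-MB-231 was lost (0.15, limma adjusted p = 0.059). PDK2 was lower in B6TC compared with MDA-MB-231 on both tested probe sets (−0.44 and −0.49) and not called against ZR-75-1 (0.05 on both). PDK4 was below the filter, with means at 3.75 (B6TC), 4.16 (MDA-MB-231) and 3.97 (ZR-75-1) on its brightest probe set.

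PDK3, another kinase of this family, was high in ZR-75-1 on all 4 tested probe sets and was read in opposite directions where B6TC was set against MDA-MB-231. The probe set with the highest mean read 8.13, 8.20 and 8.24 in B6TC cells, 8.39, 8.32 and 8.39 in those of MDA-MB-231 and 9.12, 9.30 and 9.13 in those of ZR-75-1. B6TC was below MDA-MB-231 (−0.17, limma adjusted p = 0.0237) and below ZR-75-1 (−0.99, limma adjusted p = 5.64e-08). The first call was lost without B6TC array 1 or MDA-MB-231 array 1 or 3 (adjusted p from 0.0603 to 0.0873). It was also lost with no filter (limma adjusted p = 0.0777) and with centered arrays (limma adjusted p = 0.0751). The other 3 tested probe sets were higher in B6TC compared with MDA-MB-231, by 0.25 to 0.54, as was the mean of all 4 (0.26, limma adjusted p = 0.000375). The clearest of them read 7.83, 7.96 and 7.97 (B6TC), 7.43, 7.32 and 7.40 (MDA-MB-231) and 9.34, 9.41 and 9.36 (ZR-75-1) (limma adjusted p = 1.3e-05 between B6TC and MDA-MB-231). On the third B6TC array, the one that stood apart, the first probe set exceeded the mean of the other B6TC arrays by 0.0678.

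**Figure D3:**
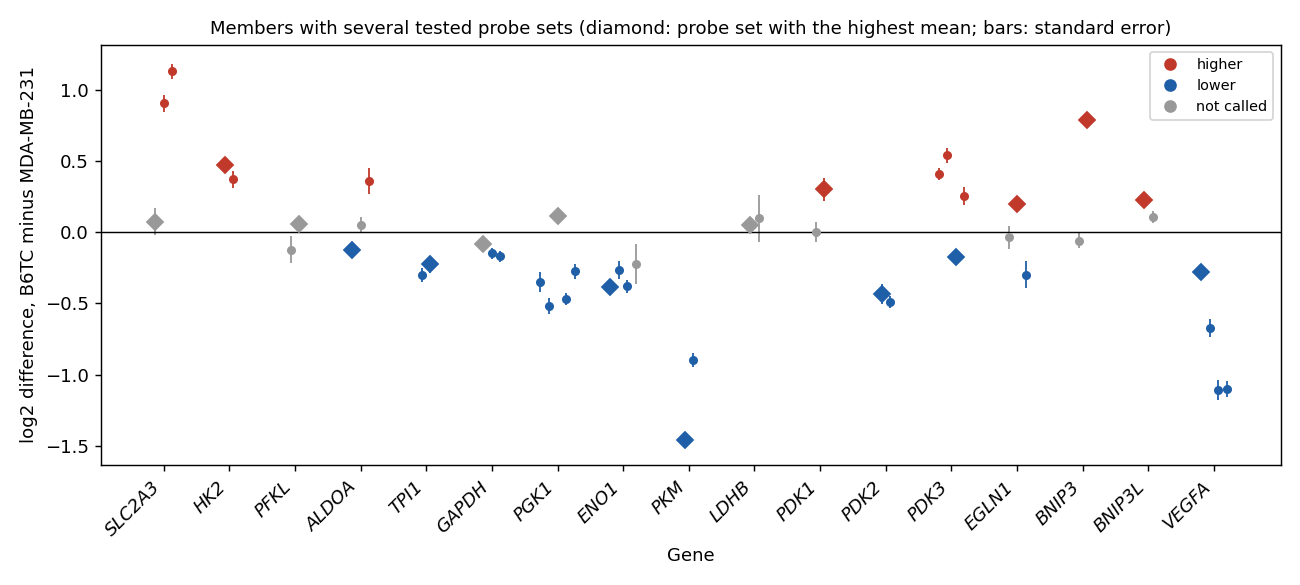
Log2 differences of B6TC minus MDA-MB-231 for the 17 genes with several tested probe sets, 1 point per probe set with its standard error, the diamond marking the probe set with the highest mean and the color the limma call. ALDOA, PDK3 and EGLN1 have probe sets called in both directions, PGK1 has 4 called lower beside the uncalled diamond, and all 4 of VEGFA lie below 0.

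At the level of probe sets, 19 of the 64 tested were higher and 28 lower in B6TC compared with MDA-MB-231, and 17 were not called, beside 33.9% higher and 31.3% lower of all tested probe sets. The arrays of these lines did not overlap at 52 of the 64, beside 70.4% of all tested probe sets. Against ZR-75-1, 39 were higher and 20 lower (43.0% and 40.6% of all), and between the parental lines 40 were higher and 17 lower in MDA-MB-231 (43.8% and 39.9% of all). There the arrays did not overlap at 60 and 57 of the 64, beside 86.5% and 84.9% of all tested probe sets. More than 1 tested probe set was at hand for 17 genes. Calls of both signs met within a gene for 3 of them in the comparison of B6TC with MDA-MB-231 (ALDOA, PDK3 and EGLN1) and for PKM in that with ZR-75-1, and for 0 between the parental lines, all by the same limma test. The direction of these 4 genes in those comparisons depends on the probe set, and the counts by gene hold for the probe set with the highest mean only.

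Of the HIF subunits and their hydroxylases, 3 of 4 were higher in B6TC compared with ZR-75-1, and EGLN3 was lower. Of all genes 42.8% were higher and 41.5% lower in this comparison. HIF1A, the α subunit of HIF-1, was highest in B6TC, with means at 12.19 ± 0.044 (B6TC), 11.86 ± 0.016 (MDA-MB-231) and 11.36 ± 0.025 (ZR-75-1). It was above MDA-MB-231 by 0.33 (SE 0.042, limma adjusted p = 7.18e-05) and above ZR-75-1 by 0.83. The α subunits are controlled mostly as proteins, which arrays do not read. EPAS1, the α subunit of HIF-2, averaged 8.10 ± 0.034 (B6TC), 8.01 ± 0.082 (MDA-MB-231) and 7.14 ± 0.046 (ZR-75-1). It was not called against MDA-MB-231 (0.09, limma adjusted p = 0.146), though it was without MDA-MB-231 array 1 (0.14, adjusted p = 0.0305), and was above ZR-75-1 by 0.97.

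EGLN1 encodes the main prolyl hydroxylase that senses oxygen for HIF. It read 10.07, 10.13 and 10.07 for B6TC, 9.93, 9.86 and 9.88 for MDA-MB-231 and 9.20, 9.05 and 9.14 for ZR-75-1, with no overlap. B6TC was above MDA-MB-231 by 0.20 (SE 0.049, limma adjusted p = 0.00537) and above ZR-75-1 by 0.96 (limma adjusted p = 2.06e-08). A second EGLN1 probe set was lower in B6TC compared with MDA-MB-231 (−0.30, limma adjusted p = 0.0164), the third tested one was not called, and the mean of the 3 was not either (−0.05, limma adjusted p = 0.549), while all 3 were higher than in ZR-75-1.

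EGLN3, a hydroxylase that is itself induced by hypoxia, was the only member of this group that was higher in ZR-75-1. It read 4.70, 4.43 and 4.86 in B6TC cells, 4.58, 4.65 and 4.61 in those of MDA-MB-231 and 6.45, 6.52 and 6.38 in those of ZR-75-1. Since it passed the filter through ZR-75-1 alone, a difference from that line was built into its selection. B6TC was below ZR-75-1 (−1.79, SE 0.093, limma adjusted p = 2.2e-08) and overlapped MDA-MB-231 (0.05, limma adjusted p = 0.68). The third B6TC array exceeded the mean of the other B6TC arrays by 0.293, and without it the difference from MDA-MB-231 was −0.05.

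The other hypoxia-induced genes were the group with the highest median differences of B6TC from both parental lines. All 6 were higher in B6TC compared with ZR-75-1, with a median difference of 1.48. Against MDA-MB-231, 5 of 6 were higher, with a median of 0.30, and VEGFA was the exception. Over all genes 42.8% and 36.5% were higher in these comparisons. Between the parental lines 4 were higher in MDA-MB-231, beside 42.6% of all genes, and BNIP3 and NDRG1 were not called. The median there was 1.51, so MDA-MB-231 stood about as far above ZR-75-1 as B6TC did. For comparison, the medians over all genes were 0.04 against MDA-MB-231 and near 0 in the other comparisons.

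ADM encodes adrenomedullin, a secreted peptide that widens vessels. It read 11.28, 11.28 and 11.23 (B6TC), 11.03, 10.80 and 10.88 (MDA-MB-231) and 6.19, 6.30 and 5.88 (ZR-75-1), without overlap. B6TC was above MDA-MB-231 by 0.36 (SE 0.099, limma adjusted p = 0.0093) and above ZR-75-1 by 5.14 (limma adjusted p = 1.72e-11). ANKRD37, an ankyrin repeat protein that is a known HIF-1 target, followed the same order. Its arrays read 8.31, 8.27 and 8.22 for B6TC, 7.54, 7.70 and 7.54 for MDA-MB-231 and 5.29, 5.54 and 5.44 for ZR-75-1. B6TC was above MDA-MB-231 by 0.67 (SE 0.072, limma adjusted p = 2.25e-05) and above ZR-75-1 by 2.84 (limma adjusted p = 1.03e-10). Both promoters, printed above, held the HIF core letters, as did those of most members.

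BNIP3 and BNIP3L encode receptors that lead mitochondria to autophagy under low oxygen. BNIP3 averaged 11.13 ± 0.058 in B6TC cells, 10.34 ± 0.022 in MDA-MB-231 cells and 10.39 ± 0.054 in ZR-75-1 cells, which is 0.79 and 0.74 higher than the parental lines (limma adjusted p = 6.54e-07 and 1.3e-07), and the parental lines did not differ by the test (−0.04, limma adjusted p = 0.4). A second BNIP3 probe set did not show this: it was not called between B6TC and MDA-MB-231 (−0.06, limma adjusted p = 0.325) and was 0.52 above ZR-75-1. With both averaged, the parental lines differed by 0.27 (limma adjusted p = 0.000124). BNIP3L read 10.02, 10.02 and 9.98 in B6TC cells, 9.82, 9.76 and 9.76 in those of MDA-MB-231 and 8.74, 8.92 and 8.87 in those of ZR-75-1. Those arrays did not overlap, and B6TC was above MDA-MB-231 by 0.22 (SE 0.054, limma adjusted p = 0.00436) and above ZR-75-1 by 1.16 (limma adjusted p = 8.58e-09). The second BNIP3L probe set was not called against MDA-MB-231 (0.11, limma adjusted p = 0.0546) and was 0.21 above ZR-75-1. NDRG1, a stress-induced gene linked to growth arrest and differentiation, averaged 8.24 ± 0.079 (B6TC), 8.005 ± 0.0051 (MDA-MB-231) and 7.95 ± 0.078 (ZR-75-1), 0.23 and 0.29 above them (limma adjusted p = 0.00444 and 0.00064).

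VEGFA, the main growth factor for blood vessels and a classic HIF target, was lower in B6TC compared with MDA-MB-231 on all 4 tested probe sets. The one with the highest mean read 9.45, 9.48 and 9.43 (B6TC), 9.85, 9.66 and 9.69 (MDA-MB-231) and 7.64, 7.59 and 7.73 (ZR-75-1). B6TC was below MDA-MB-231 (−0.28, SE 0.059, limma adjusted p = 0.00205) and above ZR-75-1 (1.798, limma adjusted p = 6.75e-10). The other 3 probe sets differed more from MDA-MB-231, by −0.68 to −1.11, and less from ZR-75-1, by 0.52 to 1.17. The probe set at 1.17 lay under the filter level in ZR-75-1 and passed through the other lines alone. A difference from ZR-75-1 was thus built into its selection. Another of the 3 is listed at 7.78 on each of the 3 B6TC arrays, at 8.80, 8.87 and 8.96 for MDA-MB-231 and at 7.35, 7.21 and 7.21 for ZR-75-1. On all 4 the B6TC arrays lay between those of the parental lines without overlap.

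B6TC was placed among the parental lines gene by gene. On the probe set with the highest mean, and where all 3 pairs of lines passed the test, B6TC was highest for 8 genes (HK2, PFKM, PFKFB3, HIF1A, EGLN1, BNIP3L, ADM and ANKRD37), between the parental lines for 6 (SLC2A1, PFKP, ENO1, LDHA, PDK1 and VEGFA) and lowest for 6 (GPI, PFKFB4, ALDOA, TPI1, PKM and PDK3). For the other 14 at least 1 pair was not called. Over all genes tested, B6TC was highest for 16.4%, between for 21.8% and lowest for 11%, and 50.9% had a pair that was not called. Other tested probe sets of EGLN1 and BNIP3L (highest), ENO1 and PDK1 (between) and ALDOA, PKM and PDK3 (lowest) did not all give the same place.

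For the 9 genes whose parental means differed by at least 1, the place of B6TC was put on a scale that runs from 0 (mean of MDA-MB-231) to 1 (mean of ZR-75-1). The median was −0.00726, against 0.036 over the 3383 genes with such a difference, and 5 of 9 lay below 0, beyond MDA-MB-231 as seen from ZR-75-1, as did 42.4% of the 3383. ANKRD37 lay at −0.308 and PFKFB3 at −0.171, with all 3 arrays of each below 0. ADM lay at −0.0754, SLC2A3 at −0.0325, LDHB at −0.00726, EGLN3 at 0.0254, PFKL at 0.0415 and VEGFA at 0.135. PKM lay at 1.17, beyond ZR-75-1, with all 3 arrays above 1, but its second probe set lay at 0.655, between the parental lines. The other probe sets of VEGFA lay at 0.404 to 0.68, those of SLC2A3 at −0.485 and −0.335, that of PFKL at −0.103 and that of LDHB at −0.00977. Without the third B6TC array the median was −0.017. These places are descriptions without a test.

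**Figure D4:**
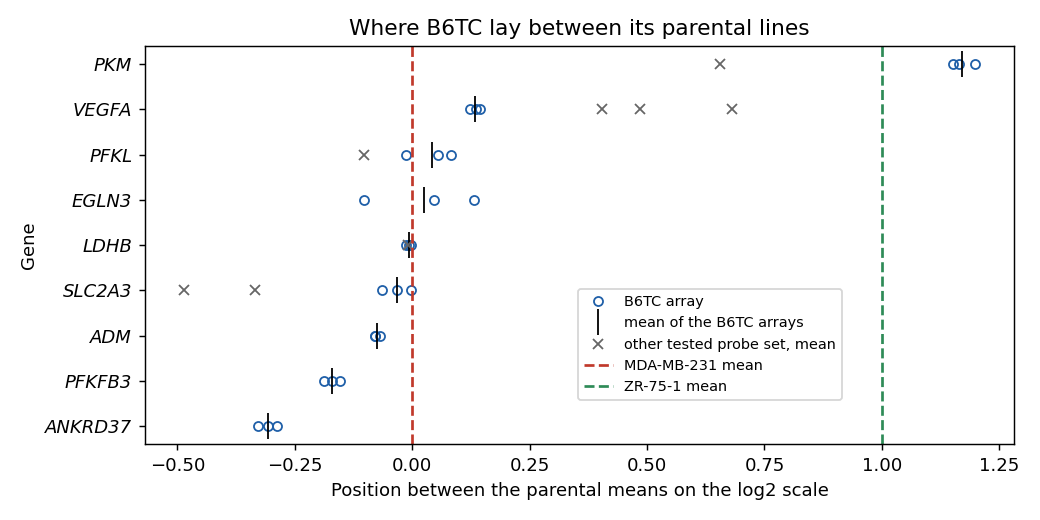
Place of B6TC on the log2 scale between its parental lines for the 9 genes whose parental means differed by at least 1, with a circle per B6TC array and a tick at their mean for the probe set with the highest mean, crosses for other tested probe sets, and dashed lines at MDA-MB-231 (0) and ZR-75-1 (1). By ticks 8 genes lie within 0.31 of MDA-MB-231 and PKM lies at 1.17, while crosses place PKM at 0.655 and VEGFA at up to 0.68.

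A further list of 59 genes of these pathways was read in the same fit, of which 44 of 55 with a probe set passed the filter. Of these, 15 were higher and 11 lower in B6TC compared with MDA-MB-231 (59.1% called, beside 65.1% of all genes). Against ZR-75-1, 18 stood higher and 22 lower in B6TC (90.9%, beside 84.4%), and 16 were higher and 23 lower in MDA-MB-231 than in ZR-75-1 (88.6%, beside 84.4%). These shares lie near those of all genes. The 20 tested genes in the further hypoxia-induced list split against ZR-75-1, with 7 higher and 11 lower in B6TC and a median of −0.25. They split against MDA-MB-231 as well, with 7 higher, 6 lower and 7 not called, and a median of 0.09. Of all genes 36.5% were higher and 28.6% lower there, with a median of 0.04. A difference of this list from the 6 members described above was not tested. The largest differences from MDA-MB-231 were those of PLOD2, a lysyl hydroxylase of collagen (1.36), FBP1, the gluconeogenic fructose bisphosphatase (−1.15), ERO1A, an oxidase of the endoplasmic reticulum (0.99), and CITED2, an inhibitor of HIF that HIF induces (0.98), each past the test. Without probe sets that may bind several transcripts ERO1A turned to −0.15 (limma adjusted p = 0.031). CITED2 averaged 11.01 (B6TC), 10.03 (MDA-MB-231) and 8.86 (ZR-75-1). Against ZR-75-1 the largest were LOX, a collagen crosslinking enzyme (5.29), STC2, a secreted glycoprotein (−4.50), FBP1 (−3.98) and the transporter SLC2A10 (−3.60). Between MDA-MB-231 and ZR-75-1 they were LOX (4.98), STC2 (−4.58), SLC2A10 (−3.63) and PPP1R3C, a glycogen-targeting subunit (−3.52). STC2, SLC2A10 and PPP1R3C passed the filter through ZR-75-1 alone. LOX lay below the filter level in ZR-75-1 and passed through B6TC and MDA-MB-231 alone. A difference from ZR-75-1 was thus built into the selection of each, and these sizes depend on how low values were made. FBP1, which opposes the phosphofructokinase step, thus averaged 7.06 (B6TC), 8.21 (MDA-MB-231) and 11.04 (ZR-75-1), and its B6TC arrays read 6.89, 6.84 and 7.43, the third being the highest.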

How the data were processed

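Log2 expression was deposited for 54675 probe sets on 9 arrays, values that the authors made, per the submitters' processing notes, with Affymetrix Expression Console and RMA; the methods of the study name GCOS, GC-RMA and R/Bioconductor instead. Background correction and normalization are therefore those of the authors, and the low values depend on them. Symbols came from the platform annotation and were updated by gene identifier to GRCh38.p14, where 54 identifiers were not found. The 62 control probe sets were left out. A probe set was tested at a log2 value of at least 6 on at least 3 arrays. limma 3.58.1 (R 4.3.3) was fitted with 1 mean per line over all 9 arrays (6 residual and 3.68 prior degrees of freedom), two-sided, with Benjamini-Hochberg adjustment over all 21095 tested probe sets in each comparison. The fit was tested on simulated data with changes planted in B6TC and independent noise at each probe set's own spread between arrays. Such data hold no spread between cultures and no quality difference between lines, so the test does not bear on these. Array by array values are given for genes that differed by at least 1 and passed the test in some comparison, for genes with probe sets called in opposite directions, and for GAPDH. Other members are given by means or counts, and of the further list the 4 largest differences of each comparison are named. The members and lists were chosen with earlier results of these data known. Alternatives were other filters, robust fits, renormalization, other choices of probe sets, a replicate block, a fold minimum and leaving out arrays. The number of arrays, 3 per line, and the lack of named separate cultures limit the precision.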

Additional observations from a re-analysis of the deposited data

How the results depend on the processing

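Of the alternatives, a stricter filter on level and variation left 8 genes lower in B6TC compared with MDA-MB-231, 7 compared with ZR-75-1 and 5 lower in MDA-MB-231 than in ZR-75-1, because fewer genes were tested. Without probe sets that may bind several transcripts, 6 were lower against MDA-MB-231, 12 higher and 5 lower against ZR-75-1, and 12 higher and 4 lower between the parental lines, again with fewer genes tested. At a fold minimum of 2 the counts were 0 higher and 1 lower, 8 higher and 2 lower, and 7 higher and 2 lower in the same 3 comparisons. The median place of B6TC between the parental lines ranged from −0.017 to −0.00459 when single B6TC arrays were left out.

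For single genes, averaged probe sets, the leaving out of probe sets that may bind several transcripts and fits of 2 lines were added after seeing the data. Over 114 pairs of a gene and a comparison, and all settings that were run on single genes, 9 calls were lost under some setting (SLC2A1, ALDOA, ENO1, LDHA, PDK1 and PDK3 between B6TC and MDA-MB-231, GAPDH and LDHA between B6TC and ZR-75-1, HK2 between the parental lines), and 8 calls were made under some setting only (SLC2A3, PFKL, GAPDH, PGK1 and EPAS1 between B6TC and MDA-MB-231, ENO2 between B6TC and ZR-75-1, HK1 and NDRG1 between the parental lines). The sign turned in 11 pairs, of which 5 had been called. Averaging a gene's probe sets turned the previously called ALDOA (0.097), PDK3 (0.258) and EGLN1 (−0.0451) against MDA-MB-231 and PKM (0.13) against ZR-75-1. It also turned PFKL (−0.033) and PGK1 (−0.2997) against MDA-MB-231 and BNIP3 (0.268) between the parental lines, which had not been called before. Once averaged, EGLN1 and PFKL were not called, whereas ALDOA, PDK3, PKM, PGK1 and BNIP3 were. Without probe sets that may bind several transcripts ERO1A, called before, was at −0.152 and PGK1 at −0.519 against MDA-MB-231. PGAM1 against MDA-MB-231 was at 0.0184 after centering of the arrays, PDK2 against ZR-75-1 was at −0.0463 after a second quantile normalization, and EGLN3 against MDA-MB-231 ranged from −0.0511 to 0.163 when single arrays were left out. The cause was not tested.

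The replicate numbers did not pair the arrays: deviations of arrays with the same number correlated at −0.102 to 0.176, and those with different numbers at −0.21 to 0.225. With a replicate block 12 genes were higher and 12 lower in B6TC compared with MDA-MB-231, and 24 of the 25 genes called there were called again, as were 32 of 32 against ZR-75-1 and 30 of 30 between the parental lines. Of the 25 calls against MDA-MB-231, 21 were made again, in the same direction, with no filter, with centered arrays and with averaged probe sets, and of the 32 against ZR-75-1 these settings gave 30, 31 and 31. Those lost against MDA-MB-231 both with no filter and with centered arrays were SLC2A1, ALDOA, LDHA and PDK3. No separate cultures are named for the arrays of a line, so the spread between cultures may not be measured.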
